A study of Rattus norvegicus with 8 samples.

Results

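The fibrillar collagens examined here are Col1a1, Col3a1, Col5a1, Col5a2, Col5a3 and Col11a1, 6 of the 32623 rat genes counted in each library. They were matched by gene name. Fibrillar collagens are secreted as procollagens, lose all or part of their end propeptides outside the cell, and pack side by side into the fibrils that give a vessel wall its tensile strength. Col1a1 encodes a chain of type I collagen and Col3a1 the chain of type III collagen, the major collagens of vascular fibrils, while the type V chains (Col5a1, Col5a2, Col5a3) and the type XI chain Col11a1 are minor partners known to take part in starting fibrils and limiting their width. Lysyl oxidases crosslink the assembled molecules, and the drug of this study, β-aminopropionitrile (BAPN), inhibits those enzymes. The other chain of type I collagen was not analysed here.

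Bulk total RNA was sequenced from the epigastric vein limb of arteriovenous fistulas (AVF) of 8 Sprague Dawley rats, 21 days after the vein was joined to the femoral artery. Both groups carried the AVF and a bilayer nanofiber scaffold of polylactic acid and poly(lactic-co-glycolic acid) around the vein, loaded with BAPN in 4 rats (3 females and 1 male) and without BAPN in 4 vehicle rats (2 females and 2 males). Ages are not given in the labels. Each library is a separate rat, and bulk RNA of a vein wall cannot tell fewer collagen-producing cells apart from less collagen RNA per cell.

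Between 45039451 and 52241007 reads were counted on genes in the BAPN libraries and between 19548203 and 22442050 in the vehicle libraries. Depth therefore separated the groups completely, and anything that followed depth cannot be told apart from the treatment. Counting error was small for every chain, since the lowest count of any member in any library was 1861 reads (Col11a1, a Poisson error of 2.32%). One vehicle library, Vehicle 4, a male, stood apart for these genes: 5 of the 6 chains had their highest level of all 8 libraries there, against 21.8% of tested genes. Several fold changes, ratios and lists are also given without that library. Vascular and fibroblast markers were present in every library, with a summed level of 7 smooth muscle markers from 616 to 2518 CPM (reads counted on a gene, scaled to the library total with TMM normalization) and of 8 fibroblast markers from 1983 to 5502 CPM.

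All 6 fibrillar collagens had lower mean levels in BAPN-treated veins than in vehicle veins, but none passed the test by edgeR. The major chains Col1a1 and Col3a1 had mean levels of 0.499 and 0.56 times those of the vehicle group, and the minor chain Col5a3 had the smallest difference, at 0.868 times. BAPN and vehicle libraries overlapped for every chain. The test was edgeR's quasi-likelihood F test with Benjamini-Hochberg adjustment (FDR) over the 11682 genes whose base mean reached 100.

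Col1a1 (ENSRNOG00000003897) stood at 15682, 15811, 10276 and 12176 CPM in BAPN 1 to 4, against 19548, 11768, 27819 and 48902 CPM in Vehicle 1 to 4. Vehicle 2 lay within the range of the BAPN libraries, and the other 3 vehicle libraries lay above it. The means were 13486 ± 2723 CPM with BAPN, against 27009 ± 15999 CPM with vehicle (SD over the 4 rats of a group). Its log2 fold change was -1.002 with a standard error of 0.41 from limma voom, and it missed the threshold by edgeR (FDR = 0.118, unadjusted p = 0.0381). DESeq2 called it (FDR = 0.0278), and an exact two-sided permutation test of log2 CPM gave p = 0.143. The 95% interval from limma voom, centered on -0.83, ran from -1.76 to 0.095.

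Col3a1 (ENSRNOG00000003357) followed Col1a1 closely, at 15961, 16549, 9916 and 13460 CPM with BAPN, against 21723, 13359, 25093 and 39548 CPM with vehicle. As for Col1a1, Vehicle 2 lay among the BAPN libraries and the others above them. Its log2 fold change was -0.84 (SE 0.34; edgeR FDR = 0.119, unadjusted p = 0.0388; DESeq2 FDR = 0.0273; exact permutation p = 0.114). The limma voom interval ran from -1.53 to 0.021, and the groups averaged 13972 ± 3017 CPM with BAPN, against 24931 ± 10922 CPM with vehicle (SD, n = 4 each).

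Col5a1 (ENSRNOG00000008749), the α1 chain that is shared by the common forms of type V collagen, was measured at 1086, 1236, 572 and 710 CPM with BAPN, against 1615, 799, 1248 and 3409 CPM with vehicle. Vehicle 2 again lay among the BAPN libraries, and Vehicle 3 lay barely above BAPN 2. The log2 fold change of -0.97 (SE 0.43) was about as large as that of Col1a1, with an edgeR FDR of 0.141 (unadjusted p = 0.0506) and a DESeq2 FDR of 0.0572. Its exact permutation p was 0.143.

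Col5a2 (ENSRNOG00000003736), the α2 chain that combines with Col5a1 chains in type V collagen, was measured at 1040, 1415, 631 and 861 CPM with BAPN, against 1379, 702, 1087 and 3070 CPM with vehicle. The groups were more mixed than for Col5a1, since BAPN 2 exceeded every vehicle library other than Vehicle 4. The log2 fold change was -0.66 (SE 0.43; edgeR FDR = 0.298, exact permutation p = 0.371).

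Col5a3 (ENSRNOG00000020525), a chain of a rarer type V form, was the steadiest of the 6, at 460, 479, 505 and 383 CPM with BAPN, against 668, 476, 439 and 522 CPM with vehicle. It was the one chain whose highest value was not in Vehicle 4 but in Vehicle 1. The log2 fold change was -0.20 (SE 0.17; edgeR FDR = 0.4), and the 95% interval from limma voom, centered on -0.19, ran from -0.57 to 0.18.

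Col11a1 (ENSRNOG00000023148), a type XI chain best known from cartilage fibrils, varied most, at 224, 438, 114 and 152 CPM with BAPN, against 294, 92, 138 and 1075 CPM with vehicle. The lowest and the highest of the 8 values were both vehicle libraries. The log2 fold change was -0.78 (SE 0.74; edgeR FDR = 0.463), while limma voom gave -0.33 with a 95% interval from -1.98 to 1.32. These data therefore leave both a fall and a rise of Col11a1 within the interval.

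**Figure D1:**
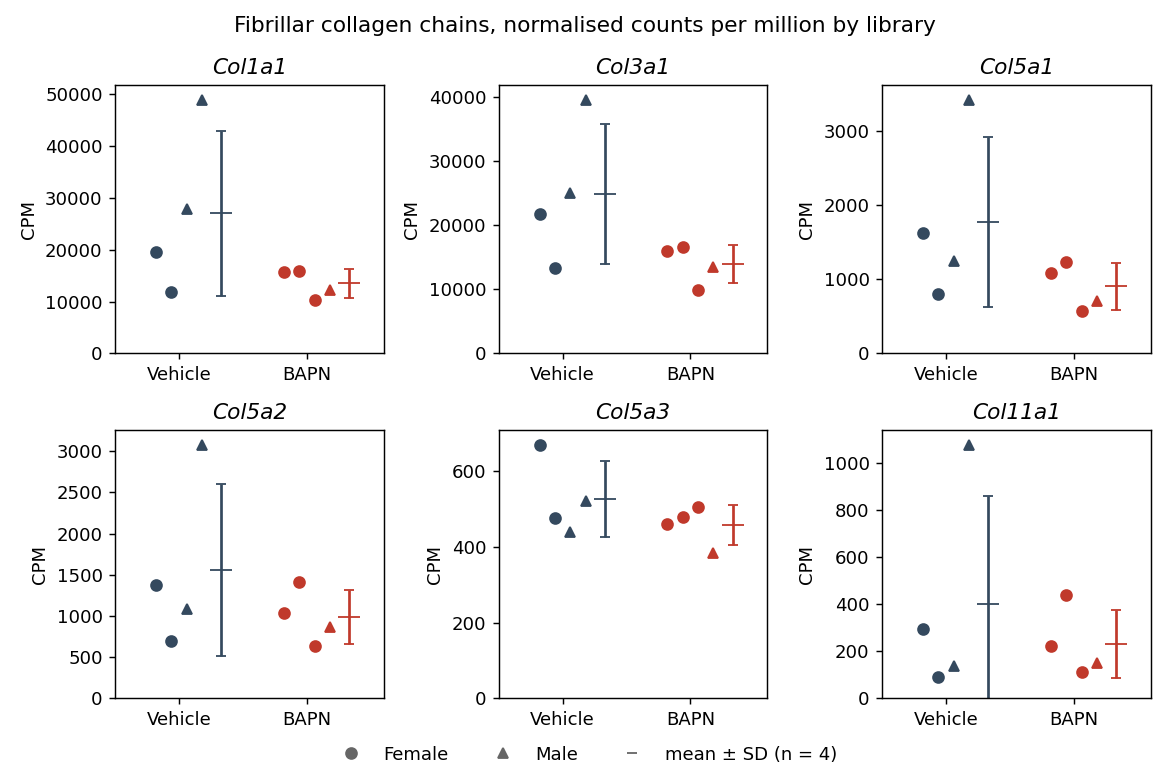
TMM-normalized CPM (vertical axes, each starting at 0) of the 6 fibrillar collagen chains in the 4 vehicle and 4 BAPN libraries, with circles for females, triangles for males, and a bar for the mean ± SD (n = 4); the lower end of the vehicle SD bar of Col11a1 falls below 0 and is cut there. The groups overlap in every panel, and Vehicle 4 is the highest library for every chain other than Col5a3.

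Counted over the list, edgeR called 0 of the 6 chains, and 2 of them had an unadjusted p under 0.05. Over all tested genes, edgeR called 16.8% in either direction and 9.25% lower with BAPN. DESeq2 called 2 of the 6, Col1a1 and Col3a1, both lower, against 27.4% of tested genes in either direction and 15.1% lower. None of the 6 had all BAPN libraries below all vehicle libraries, whereas 11.9% of tested genes did. The median log2 fold change of the 6 was -0.81, and that of all tested genes was 0.02; without Vehicle 4 these were -0.32 and 0.02. With all libraries thinned to the smallest total count, the log2 fold changes were nearly the same, from -1.01 for Col1a1 (edgeR FDR = 0.12) and -0.84 for Col3a1 (edgeR FDR = 0.121) to -0.21 for Col5a3 (edgeR FDR = 0.389).

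The level of these chains varied between vehicle rats more than that of most genes, in part through Vehicle 4. From the lowest to the highest vehicle library, Col11a1 spanned 11.7-fold, Col5a2 4.38-fold, Col5a1 4.26-fold, Col1a1 4.15-fold and Col3a1 2.96-fold, while the median tested gene spanned 1.49-fold. Col11a1 thereby spanned more than 99.4% of tested genes, and Col3a1 more than 91.9%. Col5a3 spanned 1.52-fold in the vehicle group, more than 52.5% of tested genes. Without Vehicle 4 the vehicle spans were 3.2-fold for Col11a1, 2.36-fold for Col1a1, 2.02-fold for Col5a1, 1.97-fold for Col5a2, 1.88-fold for Col3a1 and 1.52-fold for Col5a3, where the median tested gene spanned 1.35-fold. Over the same 3 libraries Col11a1 spanned more than 97.5% of tested genes and Col3a1 more than 85.8%. In the BAPN group the spans ran from 1.32-fold for Col5a3 and 1.54-fold for Col1a1 to 3.83-fold for Col11a1, around a median gene of 1.41-fold.

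Vehicle 4 exceeded the median of the other 3 vehicle libraries 7.77-fold for Col11a1, 2.83-fold for Col5a2, 2.73-fold for Col5a1, 2.5-fold for Col1a1 and 1.82-fold for Col3a1, but 1.1-fold for Col5a3. Without Vehicle 4, the edgeR log2 fold change was -0.55 for Col1a1 (FDR = 0.274), -0.52 for Col3a1 (FDR = 0.256), -0.44 for Col5a1 (FDR = 0.379) and -0.10 for Col5a2 (FDR = 0.852). That of Col5a3 stayed at -0.21, and that of Col11a1 turned to 0.41 (FDR = 0.613). The DESeq2 calls of Col1a1 (-0.56, FDR = 0.147) and Col3a1 (-0.53, FDR = 0.12) were also lost without Vehicle 4. Without Vehicle 2, the vehicle library with the lowest level of 5 of the 6 chains, edgeR called Col1a1 (log2 fold change -1.25, FDR = 0.0429) and Col3a1 (-1.04, FDR = 0.0492).

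**Figure D2:**
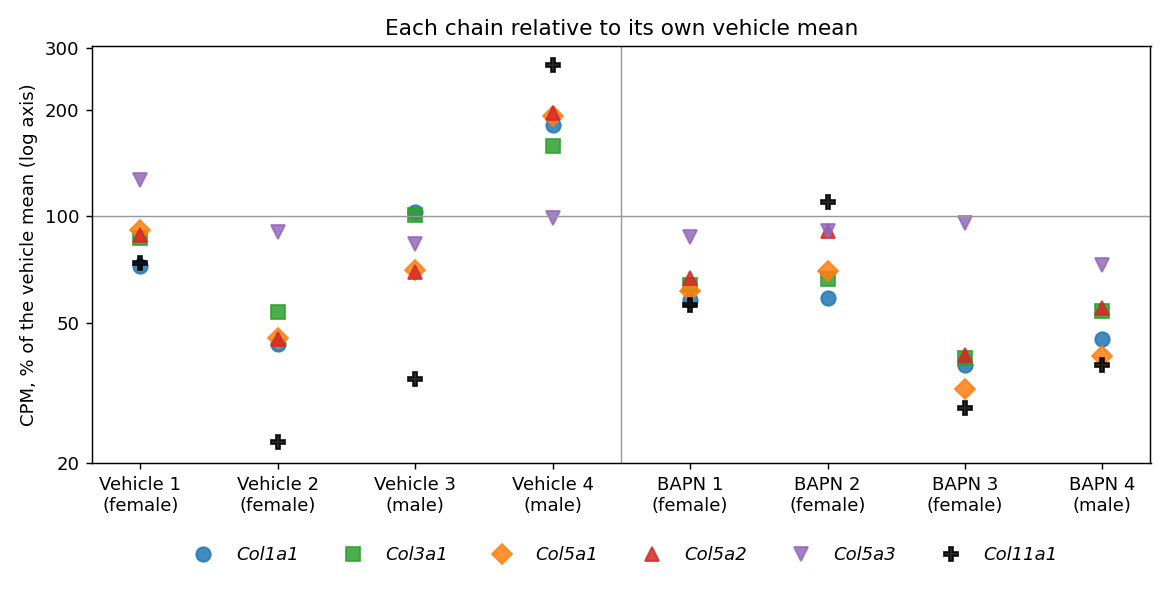
CPM of each chain as a percentage of its own vehicle mean (vertical axis, logarithmic) in the 8 libraries, by chain. In Vehicle 4 the chains other than Col5a3 lie far above 100% and in Vehicle 2 below it, while Col5a3 lies between 83.4% and 127% in the vehicle libraries.

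Sex was unevenly spread over the groups. Among females (3 BAPN, 2 vehicle), mean Col1a1 was 13923 CPM with BAPN, against 15658 CPM with vehicle, and mean Col3a1 was 14142 and 17541 CPM. Among males, Col1a1 was 12176 CPM in the 1 BAPN rat and averaged 38360 CPM in the 2 vehicle rats. In females alone the edgeR log2 fold change was -0.17 for Col1a1 (FDR = 0.8), -0.31 for Col3a1 (FDR = 0.632), -0.32 for Col5a1 (FDR = 0.649), -0.02 for Col5a2 (FDR = 0.984), -0.25 for Col5a3 (FDR = 0.458) and 0.42 for Col11a1 (FDR = 0.708). With sex as a covariate in edgeR, Col1a1 stood at -0.67 (FDR = 0.343) and Col3a1 at -0.64 (FDR = 0.293), and the DESeq2 calls of these genes were also lost (FDR = 0.156 and 0.109). With 1 BAPN male, a difference of the BAPN effect between the sexes could hardly be tested: the log2 fold change in males minus that in females ran from -2.42 for Col11a1 and -1.49 for Col1a1 to -0.08 for Col5a3 (edgeR interaction FDR from 0.456 to 0.954).

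**Figure D3:**
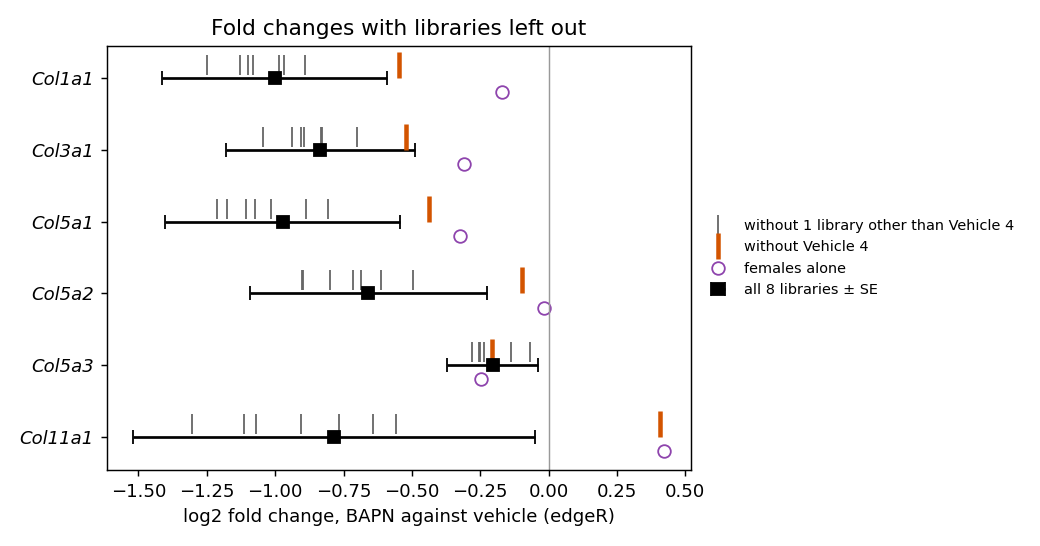
Log2 fold change of BAPN against vehicle by edgeR (horizontal axis) for each chain, with all 8 libraries (square, bar for ± SE), with 1 library left out (ticks, Vehicle 4 in orange) and in females alone (open circle). Leaving out Vehicle 4 moves every chain other than Col5a3 toward or past 0, to 0.41 for Col11a1.

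Some cell markers also differed between the groups. Their calls are by edgeR, which called 16.8% of all tested genes, 9.25% lower with BAPN, and without Vehicle 4 called 963 of the 11682, 546 of them lower. Of 8 tested fibroblast markers, 4 fell and none rose (2 fell without Vehicle 4), and their summed level was 1983 to 2364 CPM with BAPN, against 3831 to 5502 CPM with vehicle, without overlap. The marker Gsn alone held 832 to 1091 CPM of that sum with BAPN and 1535 to 3349 CPM with vehicle. Of 7 smooth muscle markers, 6 fell, among them the smooth muscle myosin Myh11, with summed levels of 616 to 1227 CPM with BAPN, against 1707 to 2518 CPM with vehicle (4 fell without Vehicle 4). Of 7 myofibroblast markers, none was called by edgeR and 1 by DESeq2, and their summed levels overlapped (3492 to 8230 and 4510 to 10300 CPM). Of 6 endothelial markers 2 fell, none of 7 macrophage markers was called, 2 of 7 T cell markers and 2 of 3 tested B cell and plasma cell markers rose (1 and 0 without Vehicle 4), and 1 of 6 adipocyte markers fell (2 without Vehicle 4). None of 2 skeletal muscle, 7 nerve and 1 keratinocyte markers was called by edgeR, and DESeq2 called 1 skeletal muscle marker lower. The part of these cell types in the collagen values was not tested.

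As a share of all counted reads, the 6 chains took 3.52%, 3.61%, 2.12% and 2.54% in BAPN 1 to 4, against 4.6%, 2.81%, 5.91% and 9.22% in Vehicle 1 to 4. Vehicle 2 lay among the BAPN libraries, and the others lay above them. The major chains took 2.7% ± 0.654 of reads with BAPN and 5.21% ± 2.48 with vehicle (SD, n = 4 each), and the 4 minor chains together took 0.254% ± 0.0855 and 0.424% ± 0.244. Without Vehicle 4 the vehicle shares were 4.13% ± 1.5 for the major and 0.308% ± 0.094 for the minor chains (SD, n = 3), and the difference in the share of all 6 was -1.49 in place of -2.69 percentage points. These shares were described without a test.

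Within a library, the ratio of the counts of 2 chains does not depend on the library total. It is a ratio of reads, not of molecules, since reads also follow transcript length, and the same ratio is therefore compared only between libraries. The 4 minor chains summed were 8.88%, 11%, 9.03% and 8.21% of the summed major chains in BAPN 1 to 4, against 9.58%, 8.24%, 5.5% and 9.13% in Vehicle 1 to 4. The groups overlapped, with Vehicle 3 the lowest and BAPN 2 the highest, and the means were 9.29% ± 1.21 with BAPN and 8.11% ± 1.83 with vehicle (SD, n = 4 each). Single pairs of chains were then compared in 12 ratios by an exact two-sided permutation test of the log2 ratio, whose smallest possible p with 4 rats against 4 is 0.0286, and whose p values are not adjusted for the 12 ratios.

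Most ratios between major and minor chains differed by less than the spread between rats. The Col5a1 to Col1a1 ratio was 6.53% ± 1.04 with BAPN and 6.63% ± 1.57 with vehicle (log2 difference 0.00038, SE 0.22, exact p = 1). Col5a2 to Col1a1 stood at 7.2% ± 1.23 and 5.8% ± 1.34 (log2 difference 0.33, SE 0.22, exact p = 0.2), and Col5a2 to Col3a1 at 6.96% ± 1.07 and 5.92% ± 1.48 (0.25, SE 0.21, exact p = 0.229; SD, n = 4 each). The log2 difference of Col5a2 to Col1a1 was 0.15 without Vehicle 3 and 0.14 in females alone. Col5a1 to Col3a1 had a log2 difference of -0.08 (SE 0.21, exact p = 0.743), and none of the 8 ratios of a minor to a major chain had groups without overlap. The 8 are not independent, since they share their chains.

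The ratio of Col3a1 to Col1a1 also overlapped, at 102%, 105%, 96.5% and 111% with BAPN and 111%, 114%, 90.2% and 80.9% with vehicle (log2 difference 0.08, SE 0.13, exact p = 0.6). The 2 vehicle males held the lowest ratios of the 8 libraries and the 2 vehicle females the highest. This ratio spread more in the vehicle group (SD 16) than in the BAPN group (SD 5.86).

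Ratios with Col5a3 and Col11a1 spread most. The Col5a3 to Col1a1 ratio was 2.94%, 3.03%, 4.91% and 3.14% with BAPN and 3.41%, 4.05%, 1.58% and 1.07% with vehicle (log2 difference 0.64, SE 0.49, exact p = 0.286). The 2 vehicle males were the lowest, and among females alone the difference was -0.08. Without 1 library it lay between 0.29 (without Vehicle 4) and 0.93 (without Vehicle 2). The Col11a1 to Col1a1 ratio was 1.43%, 2.77%, 1.11% and 1.25% with BAPN and 1.51%, 0.782%, 0.497% and 2.2% with vehicle (log2 difference 0.52, SE 0.56, exact p = 0.4). BAPN 2 and Vehicle 4, the highest library of each group for Col11a1 itself, were also highest in this ratio. Without 1 library the difference lay between 0.16 (without Vehicle 3) and 0.87 (without Vehicle 4).

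The ratio between both main type V chains, Col5a2 to Col5a1, was the 1 of the 12 without overlap between the groups. It was 95.8%, 115%, 110% and 121% in BAPN 1 to 4, against 85.4%, 87.8%, 87.1% and 90% in Vehicle 1 to 4. All 4 BAPN libraries lay above all 4 vehicle libraries, and the vehicle libraries lay within a narrow band, Vehicle 4 included. The means were 110% ± 10.8 with BAPN and 87.6% ± 1.92 with vehicle (SD, n = 4 each), a log2 difference of 0.33 (SE 0.07) with an exact permutation p of 0.0286, the smallest possible. Without any 1 library, the log2 difference stayed between 0.28 and 0.40. The exact permutation p was 0.0571 without any 1 vehicle library, and 0.2 in females alone (log2 difference 0.30). Fitted as a count model over all genes, with the Col5a1 count as the offset, edgeR gave the same size (0.33) and did not call it (FDR = 0.643), and in that fit the spread of Col5a2 about its group means (quasi-dispersion 0.0183) was replaced by the value shared by all genes (0.972).

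Other genes show how often a ratio separates the groups. Over all tested genes, 5.04% had a ratio to Col5a1 that was higher with BAPN without overlap and 0.3% one that was lower. For Col1a1 as the denominator these shares were 8.07% and 0.257%, and for Col3a1 13.4% and 0.625%, while 0 of the 4 minor chains separated against either of them. Against Col5a1, 1 of the 3 other minor chains separated. The ratio of Col11a1 to Col5a1 was higher with BAPN on average (0.52, SE 0.40, exact p = 0.2), and without Vehicle 4 its groups did not overlap (0.84, exact p = 0.0286). The same held for Col5a2 to Col3a1 without Vehicle 4 (0.40, exact p = 0.0286), with BAPN 3 at 6.37% and Vehicle 1 at 6.35%. The shares of all tested genes given above are for all 8 libraries. Those without Vehicle 4, where fewer libraries must separate, were not counted.

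**Figure D4:**
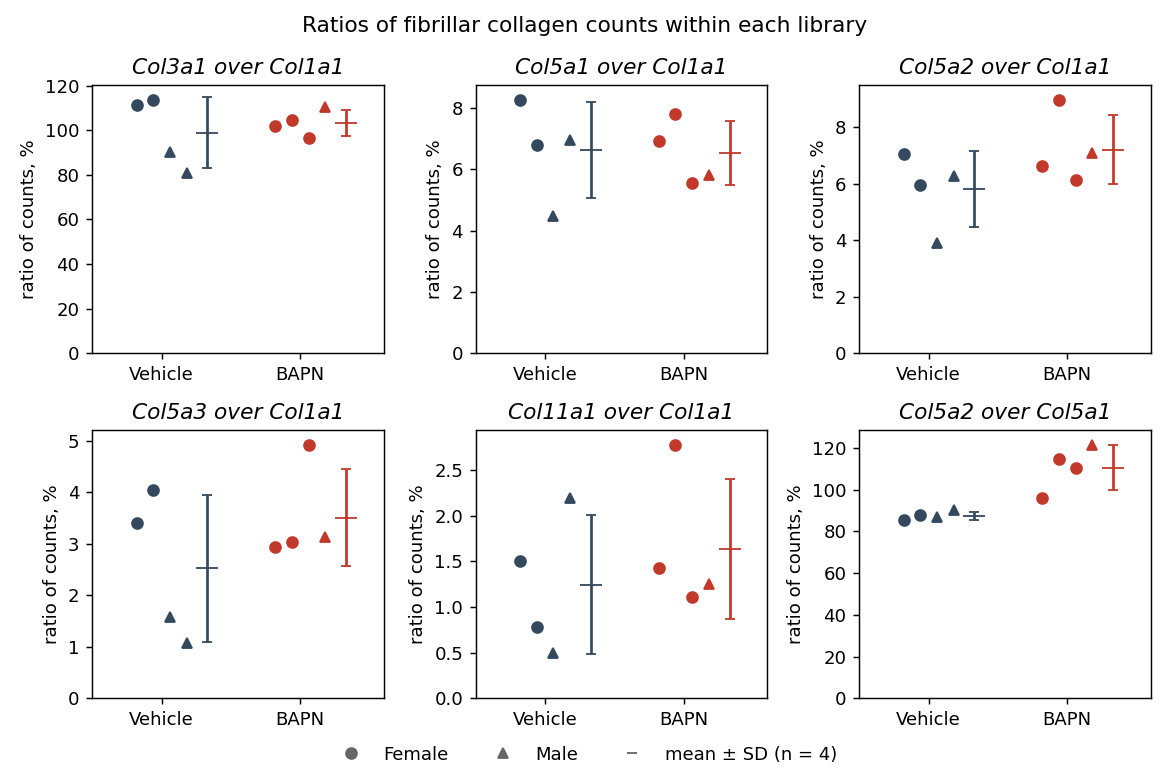
Ratio of the counts of a pair of chains within each library, in percent (vertical axes, each starting at 0), for the vehicle and BAPN groups, with circles for females, triangles for males, and a bar for the mean ± SD (n = 4). The groups overlap in every panel other than Col5a2 over Col5a1, where vehicle libraries lie between 85.4% and 90% and BAPN libraries between 95.8% and 121%.

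The chains resembled each other in how they varied over the 8 libraries, with the likeness measured as the root mean square (RMS) difference of their centered log2 CPM. Col1a1 and Col3a1 were the closest pair (RMS 0.158), followed by Col5a1 and Col5a2 (RMS 0.188), and Col5a3 and Col11a1 were the least alike (RMS 1.04). The rest of the pairs among Col1a1, Col3a1, Col5a1 and Col5a2 lay between 0.258 and 0.316. Col5a3 was between 0.561 and 0.683 from these chains, and Col11a1 between 0.49 (Col5a2) and 0.761 (Col3a1). The differences are given as descriptions, since all chains share the same libraries.

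Among the 11028 tested genes with a symbol, each chain had other genes that followed it more closely than any other member did. Those nearest to Col1a1 were Zbtb47 (RMS 0.1), Slc2a12 (0.108) and Vipr2 (0.12), where the median gene was at 0.748, and those nearest to Col3a1 were Wwc2 (0.116), Fzd2 (0.139) and Plce1 (0.14). Col5a1 was nearest to Abi3bp (0.0849), the basement membrane collagen gene Col4a2 (0.138) and Dpysl3 (0.162), and Col5a2 to Lrig3 (0.114), Pdgfrl (0.132) and Cdh11 (0.142), a cadherin of mesenchymal cells. Col5a3 was nearest to Ogfod3 (0.0597), Creb5 (0.086) and Nubpl (0.0892). The nearest to Col11a1 were Col12a1 (0.314), a fibril-associated collagen, Epha3 (0.353) and Col8a2 (0.376), all farther off than the nearest gene of any other chain.

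Col5a2 and Col11a1 are shown here by the 250 bases before their annotated gene starts, written 5′ to 3′ along the gene, from RefSeq on build GRCr8. They have the largest spans among the minor chains within the vehicle group, for Col5a2 only with Vehicle 4 included. Windows were matched by symbol for 4 of the 6 chains, and those of Col5a1 and Col5a3, which begin inside the annotated gene, are not shown. Capitals mark matches on either strand to the word of the TATA box (TATAAA), of the CCAAT box (CCAAT, which reads ATTGG when it lies on the reverse strand), and of the GC box (GGGCGG). The window of Col11a1 lies at chr2:204508886-204509135 on the plus strand and that of Col5a2 at chr9:55090152-55090401 on the minus strand.
Col11a1: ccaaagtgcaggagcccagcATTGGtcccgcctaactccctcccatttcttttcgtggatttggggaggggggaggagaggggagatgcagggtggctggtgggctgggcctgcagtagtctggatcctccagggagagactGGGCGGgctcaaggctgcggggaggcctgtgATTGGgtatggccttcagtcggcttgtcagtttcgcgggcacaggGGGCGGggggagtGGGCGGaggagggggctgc
Col5a2: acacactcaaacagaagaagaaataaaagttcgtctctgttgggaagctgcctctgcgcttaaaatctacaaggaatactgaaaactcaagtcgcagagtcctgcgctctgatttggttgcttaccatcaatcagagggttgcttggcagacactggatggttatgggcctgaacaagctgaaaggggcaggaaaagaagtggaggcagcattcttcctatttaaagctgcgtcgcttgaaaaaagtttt

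The window of Col11a1 held 2 matches to CCAAT, 230 to 226 and 77 to 73 bases before the start, and 3 to GGGCGG, the nearest 19 to 14 bases before it, and its GC content was 65.6%. That of Col5a2 held none of the 3 words and had a GC content of 44.8%. Over all 33469 windows of that length, 12.9% held TATAAA, 34% CCAAT and 30.5% GGGCGG, and the median GC content was 51.2%. The matches are letters, not binding sites. In the RefSeq gene table, Col5a2 is also the next protein-coding gene after Col3a1 by position, and over the libraries their RMS difference was 0.285.

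Of the other fibrillar collagen genes, Col2a1 and Col11a2, both cartilage collagens, had base means of 13.1 and 60.7 and fell below the minimum for testing. Col24a1 was measured at 6.08 ± 2.58 CPM with BAPN, against 5.46 ± 4.51 CPM with vehicle (log2 fold change 0.16, SE 0.48, edgeR FDR = 0.844). Vehicle 4 alone held 12.2 CPM of Col24a1, and without it the vehicle mean was 3.22 CPM and the log2 fold change 0.92 (edgeR FDR = 0.124). Col27a1 was measured at 16.2 ± 2.15 and 21.4 ± 5.99 CPM (-0.40, or -0.21 without Vehicle 4; SE 0.19, edgeR FDR = 0.182; SD, n = 4 each).

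Beyond the chains, 75 genes of collagen production, assembly, sensing and breakdown were followed in 8 lists, including the other fibrillar collagens. Of the 61 tested, 44 had a log2 fold change below 0, as did 48.4% of all tested genes, and without Vehicle 4 it was 36 of the 61, against 48.2%. Of the 61, edgeR called 5 (8.2%), 3 lower and 2 higher with BAPN, against 16.8% of all tested genes, 9.25% lower and 7.5% higher. DESeq2 called 14 lower and 5 higher, against 27.4% of all tested genes in either direction and 15.1% lower. None of the 5 edgeR calls remained without Vehicle 1, where edgeR called 397 of the 11682 tested genes and the fold changes stayed about as large, such as -1.05 for Adamts2 and -0.80 for Mmp14 (FDR from 0.0527 to 0.0739 for Adamts2, Ddr2, Sar1b and Mia2, and 0.0928 for Mmp14), and without Vehicle 4 those of Sar1b (FDR = 0.0445) and Adamts2 (FDR = 0.0344) did. The called genes lay in export, propeptide cleavage, receptors and degradation.

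Genes of procollagen hydroxylation and folding, which act on the chains inside the endoplasmic reticulum, were called in 0 of 16 cases by edgeR (median log2 fold change -0.09, or 0.07 without Vehicle 4; 1 by DESeq2, higher). The secreted collagen-binding glycoprotein Sparc stood at 7939 ± 1662 CPM with BAPN, against 10500 ± 5387 CPM with vehicle (edgeR FDR = 0.441), and without Vehicle 4 the vehicle mean was 8010 CPM. The collagen chaperone Serpinh1 stood at 985 ± 210 and 1369 ± 514 CPM (edgeR FDR = 0.246; SD, n = 4 each). Its log2 fold change was -0.48, or -0.21 without Vehicle 4, where the vehicle mean was 1140 CPM.

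Of 7 genes of procollagen export from the endoplasmic reticulum, 2 rose with BAPN, against 7.5% of all tested genes. Sar1b, a GTPase that builds COPII vesicles, stood at 41, 49, 49.4 and 42.3 CPM with BAPN, against 28.6, 26.9, 36.1 and 32.8 CPM with vehicle (log2 fold change 0.55, SE 0.13, edgeR FDR = 0.0248). Mia2, which helps load large cargo into those vesicles, stood at 78.3, 68, 82.7 and 76 CPM with BAPN, against 59.3, 56.8, 63 and 51.4 CPM with vehicle (0.40, SE 0.11, edgeR FDR = 0.032). Both were higher in every BAPN library than in any vehicle library, as were 12.7% of all tested genes. The COPII coat gene Sec24d had a log2 fold change of -0.37 (edgeR FDR = 0.309; -0.13 without Vehicle 4).

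Of 5 tested genes of propeptide cleavage, Adamts2, the protease that trims the amino end of fibrillar procollagens, was called. It stood at 249, 240, 169 and 191 CPM with BAPN, against 485, 290, 472 and 553 CPM with vehicle. Every BAPN library lay below every vehicle library, and its log2 fold change was -1.08 (SE 0.22, edgeR FDR = 0.0169). Pcolce, which enhances cleavage of the carboxyl end, had a log2 fold change of -0.54 (SE 0.30, edgeR FDR = 0.223; -0.18 without Vehicle 4), and the median of the list was -0.55 (-0.36 without Vehicle 4).

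None of the 5 lysyl oxidases, the target family of BAPN, was called by edgeR, and DESeq2 called 2, both lower. Lox itself stood at 436 ± 82.9 CPM with BAPN, against 490 ± 176 CPM with vehicle (log2 fold change -0.17, edgeR FDR = 0.678), and without Vehicle 4 its log2 fold change was 0.04 (edgeR FDR = 0.93). Loxl1 stood at 404, 496, 348.1 and 458 CPM with BAPN, against 662, 497, 597 and 990 CPM with vehicle (-0.69, edgeR FDR = 0.0623), without overlap but with BAPN 2 and Vehicle 2 nearly equal. All 10 tested fibril-associated collagens and proteoglycans had log2 fold changes below 0 (median -0.66), 7 of 10 without Vehicle 4 (median -0.30), and edgeR called none of them, while DESeq2 called 3. The adhesive glycoprotein Fn1 was at -0.06 (edgeR FDR = 0.905; 0.11 without Vehicle 4) and the small proteoglycan Bgn at -0.65 (edgeR FDR = 0.222; -0.32 without Vehicle 4).

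Of 7 tested collagen receptors, Ddr2, a receptor tyrosine kinase that binds fibrillar collagen, fell with BAPN. It stood at 38.1, 34.1, 11.8 and 23 CPM with BAPN, against 88.3, 47.1, 67.2 and 112 CPM with vehicle, without overlap (log2 fold change -1.56, SE 0.38, edgeR FDR = 0.0261). Itgb1, the shared chain of the collagen-binding integrins, was at 0.16 (edgeR FDR = 0.521; 0.28 without Vehicle 4), and the collagen uptake receptor Mrc2 was at -0.83 (edgeR FDR = 0.0542). The median of the list was -0.78, or -0.26 without Vehicle 4.

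Of 9 tested genes of fibrillar collagen degradation, Mmp14, a membrane-bound collagenase, fell. It stood at 659, 691, 478 and 639 CPM with BAPN, against 1016, 778, 939 and 1503 CPM with vehicle, without overlap (log2 fold change -0.78, SE 0.22, edgeR FDR = 0.0432). Mmp2, a gelatinase that Mmp14 activates, was at -0.55 (edgeR FDR = 0.235; -0.26 without Vehicle 4), and the inhibitor Timp2 was at -0.52 (edgeR FDR = 0.0746). The list was mixed in direction, with 5 of 9 below 0 (median -0.23, or -0.09 without Vehicle 4).

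**Figure D5:**
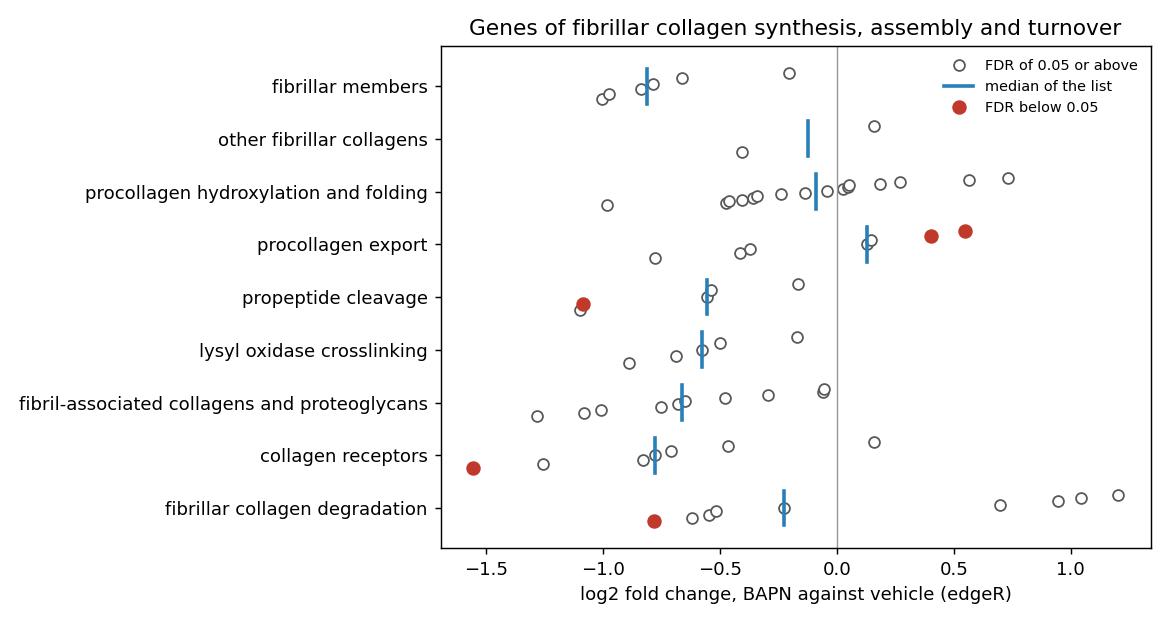
Log2 fold change of BAPN against vehicle by edgeR (horizontal axis) of each tested gene, by list, with the median as a bar and filled points for an FDR below 0.05. The fibrillar chains lie below 0 without a call, and the 5 called genes are Sar1b and Mia2 above 0 and Adamts2, Ddr2 and Mmp14 below it.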

How the data were processed

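The deposited files hold raw counts of reads per gene, 1 library per rat. Per the labels and the authors' methods, DNase-treated total RNA was depleted of ribosomal RNA and made into stranded libraries, and reads passed bcl2fastq 2.17, Trim Galore and STAR. The counting tool, strand setting and genome build are not given in the sources used here.

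As in the authors' methods, genes whose base mean lay below 100 were left out. The 11682 tested genes held 99.5% to 99.7% of each library's counts. The comparison used edgeR 4.0.16 (TMM, quasi-likelihood F test, treatment alone, FDR below 0.05) in R 4.3.3, with DESeq2 1.42.0 as an alternative and standard errors and intervals from limma 3.58.1. Log2 CPM used a prior count of 2, and 0.5 was added to counts in ratios. Exact permutation tests covered all 70 arrangements and were two-sided.

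The members, the lists, the tests and the alternatives were chosen with earlier results of these data known. Genes named from a list are those edgeR called and the 2 with the largest mean CPM, and those of likeness are the 3 nearest. DESeq2 runs with sex as a covariate, without Vehicle 2, without Vehicle 4 and in females alone were chosen after seeing the data. Replicates of a group differed beyond counting noise (chi-square per degree of freedom from 68.6 to 321). The steps were tested on simulated counts.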

Additional observations from a re-analysis of the deposited data

Results flagged for a closer look

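In 4 of 38 groups of 4 libraries, counting each chain and each ratio in each group, 1 library lay far from the other 3 for the range of its group. Chance gives this in about 1 of 20 groups, and the ratios share their chains. In BAPN 3, Col5a3 was 4.91% of Col1a1 and 5.09% of Col3a1, where the other BAPN libraries lay between 2.94% and 3.14% and between 2.84% and 2.89%. In BAPN 2, Col5a2 was 8.55% of Col3a1 (the others 6.37% to 6.52%), and Col11a1 was 35.5% of Col5a1 (the others 20% to 21.4%).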

How the results depend on the processing

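Under the alternatives, 261 values counted as the same, 9 newly passed the threshold and 7 no longer passed it. A further 14 reversed and 9 counts moved by over 1.5 times. For tested values, the same means that direction and side of the threshold were kept. For the 8 values of the share of reads, it means a move smaller than the vehicle SD (2.7 percentage points). For 1 count of list genes, it means a move within 1.5 times. DESeq2 called Col1a1 (-1.02) and Col3a1 (-0.85), and edgeR without Vehicle 2 called them too. DESeq2 without Vehicle 4 called none of the 6 chains (Col1a1 -0.56, Col3a1 -0.53), and DESeq2 without Vehicle 2 called Col1a1 (-1.26), Col3a1 (-1.05) and Col5a1 (-1.23). With 1 library left out, the log2 fold change ranged from -1.25 to -0.55 for Col1a1, -1.04 to -0.52 for Col3a1, -1.21 to -0.44 for Col5a1, -0.90 to -0.10 for Col5a2, -0.28 to -0.07 for Col5a3 and -1.30 to 0.41 for Col11a1. Col11a1 reversed in females alone (0.42; DESeq2 0.41) and without Vehicle 4 (0.41; DESeq2 0.40).

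Col5a1 to Col1a1 changed sign with Col1a1 as the offset (-0.0204), in females alone (-0.16) and with libraries left out (-0.18 to 0.12). Females alone also reversed Col5a3 to Col1a1 (-0.078) and Col3a1 to Col1a1 (-0.15), which ranged from -0.016 to 0.147 with libraries left out, and Col5a1 to Col3a1 ranged from -0.213 to 0.0522. Col5a2 to Col5a1 kept its direction but not its call with the offset (0.33), in females alone (0.30, exact p = 0.2, where 0.1 is the smallest possible) and without each vehicle library in turn (0.28 to 0.40 over all libraries left out, exact p up to 0.0571). Without Vehicle 4, Col5a2 to Col3a1 (0.40, in a range of 0.11 to 0.40 with libraries left out) and Col11a1 to Col5a1 (0.84, in a range of 0.33 to 0.84) separated. The share of all tested genes that separate in that setting was not counted.

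The called genes of the lists numbered 5 by edgeR, 19 by DESeq2 and 0 to 14 with libraries left out (0 without Vehicle 1, 14 without Vehicle 2 and 2 without Vehicle 4, where edgeR called 397, 2215 and 963 of all tested genes). Samples with the same replicate number did not deviate together (correlations from -0.265 to 0.269). With the number as a block, Col1a1 stood at -0.84 and Col3a1 at -0.76, neither called, Col5a2 to Col5a1 at 0.33 in the offset fit (edgeR FDR = 0.727), and 0 genes of the lists were called. Over all tested genes edgeR called 1957, DESeq2 3202, the sex covariate left 930, the block 556 and females alone 89. Why these differ was not tested.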
